A study of Rattus norvegicus with 56 samples.

Results

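miR-190a-5p and miR-190b-5p are small non-coding RNAs that share a seed, the bases at positions 2 to 8 through which a miRNA mostly recognises its target mRNAs. They are 2 of the 367 mature rat miRNAs in a table of small RNA sequencing counts from the hippocampus, under the names rno-miR-190a-5p and rno-miR-190b-5p. Both passed the filter on low counts at every interval. The pair was chosen on measured values of these same libraries, because miR-190b-5p was higher after injury at 2 w and miR-190a-5p was lower at 1 m. The values of both miRNAs at 2 w and 1 m are therefore given as a description, and nothing is read from a test there. Tests are given for the other 5 intervals.

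The 56 libraries came from 28 rats with traumatic brain injury (TBI), made by fluid percussion, in which a pressure pulse is delivered to the exposed dura, and 28 rats with sham surgery. The hippocampus was taken at 24 h, 2 w, 1 m, 2 m, 3 m, 6 m or 1 y, from 4 TBI and 4 sham rats at each interval. Strain, sex and age are not given in the sources used here, and rats of a later interval were also older when the tissue was taken. The libraries are of bulk tissue, in which fewer cells of a type and less RNA per cell cannot be told apart.

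A miRNA is cut from a hairpin precursor and, loaded into an Argonaute protein, lowers the translation and stability of mRNAs that pair with its seed. miR-190a is encoded in an intron of Tln2, the gene of the adhesion protein talin-2. In hippocampal neurons miR-190 is known to repress the mRNA of NeuroD1, a transcription factor of neuronal differentiation, and this repression has been linked to mu-opioid receptor signalling. Because both members carry the same seed, many of their predicted targets are shared.

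The mature sequences from RefSeq (GRCr8) are shown because the shared seed and the late point of divergence bear on how far the counts of the pair can be separated. Capitals mark the seed.

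rno-miR-190a-5p: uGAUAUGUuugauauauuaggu

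rno-miR-190b-5p: uGAUAUGUuugauauuagguu

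miR-190a-5p has 22 bases and miR-190b-5p has 21, and the first 15 bases are the same. Aligned without gaps, the first mismatch is at position 16, and 6 positions differ over the shorter length. After the shared start, miR-190b-5p lacks 2 bases of miR-190a-5p and adds 1 at its 3′ end. How reads that fit both miRNAs were divided is not given in the sources used here. RefSeq sequences were found for 331 of the 367 rows, and the pair were the only 2 of these with this seed. They were also the richest in A and U, with 77.3% in miR-190a-5p and 76.2% in miR-190b-5p, against a median of 52.4% over the matched rows.

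The 2 genes lie apart in GRCr8. miR-190a-5p is at chr8:76732228-76732249 on the minus strand, inside Tln2 and on the same strand as that gene. miR-190b-5p is at chr2:177812471-177812491 on the plus strand, between Cfap141 and Tpm3, which encodes a tropomyosin, and all 3 are on the same strand. The table holds 0 rows for a 3p arm of either miRNA.

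Total counts were 2083604 to 12468979 in 55 libraries and 69628 in the other, TBI replicate 1 at 2 m. That shallow library held 2 counts of miR-190a-5p and 5 of miR-190b-5p, so the 2 m contrasts, tests and shares of the pair are given with and without it. Levels are counts per 1000000 (CPM) of the library size scaled by TMM, a method that sets libraries to a common scale through the bulk of the miRNAs.

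Both miRNAs were of middling abundance. miR-190a-5p had a mean of 33.0 CPM over the 56 libraries (rank 159 of 367), from 9.39 to 61.6 with a median of 31.1. miR-190b-5p had a mean of 45.1 CPM (rank 149), from 25.7 to 122 with a median of 43.7. The counts behind these levels were 2 to 823 and 5 to 1066.

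miR-190a-5p varied more between rats of the same group than most miRNAs of its abundance. Without the shallow library, the SD of its log2 CPM within groups was 0.45, and 43 of the 50 miRNAs nearest to it in mean level had a lower one (median 0.29). The SD of miR-190b-5p was 0.32, and 31 of its 50 nearest had a lower one (median 0.28).

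**Figure D1:**
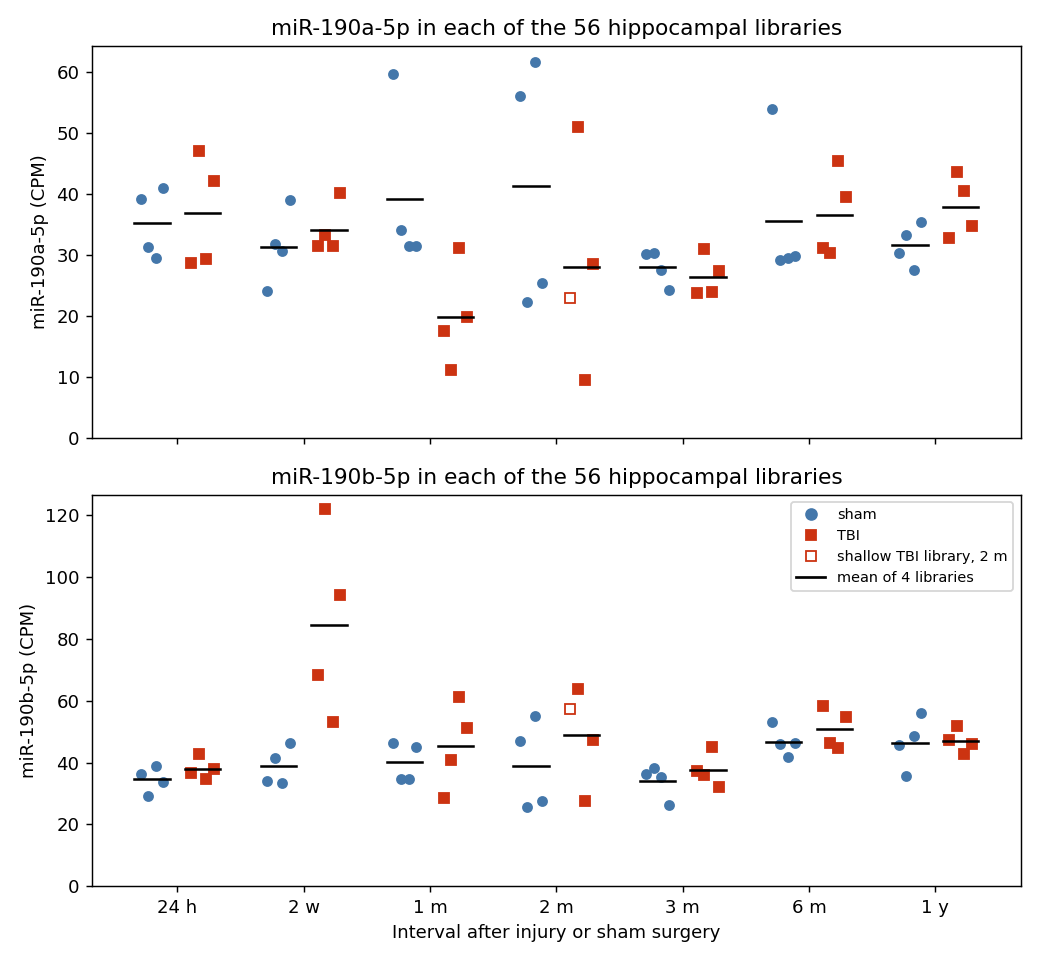
Level of miR-190a-5p (upper panel) and miR-190b-5p (lower panel) in CPM in each library, by interval, with 4 sham (circles) and 4 TBI rats (squares) per interval, a bar at the mean and the shallow library open. The TBI libraries at 2 w hold the highest mean of miR-190b-5p (84.4 CPM), and those at 1 m hold the lowest mean of miR-190a-5p (19.8 CPM).

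At 2 w, miR-190b-5p was higher in all 4 TBI rats than in all 4 sham rats. The TBI libraries held 68.2, 122, 53.1 and 94.2 CPM and the sham libraries 33.9, 41.5, 33.4 and 46.2 CPM. The means were 84.4 ± 30.2 and 38.7 ± 6.19 CPM (SD, n = 4 each), a ratio of 2.18, and the log2 fold change of the edgeR fit was 1.15 (SE 0.24). The groups did not overlap, and TBI replicate 3 lay closest to the sham rats. All 4 TBI libraries were above all 4 sham libraries in 3.52% of the 227 miRNAs tested at 2 w, a share from which nothing is read here because this contrast chose the pair. With each rat left out in turn, the log2 fold change was 0.91 to 1.31.

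miR-190a-5p at 2 w lay in the same range in both groups. Its levels were 31.4, 33.2, 31.3 and 40.01 CPM after TBI and 24.0, 31.6, 30.6 and 39.0 CPM after sham surgery, and its log2 fold change was 0.14 (SE 0.16). miR-190b-5p had more counts than miR-190a-5p in all 4 TBI and all 4 sham libraries at 2 w.

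At 1 m the other member stood apart. miR-190a-5p was 17.5, 11.1, 31.1 and 19.7 CPM in the TBI libraries and 59.6, 34.1, 31.4 and 31.4 CPM in the sham libraries. The means were 19.8 ± 8.32 and 39.1 ± 13.7 CPM (SD, n = 4 each), a sham level 1.97 times that after TBI, with a log2 fold change of -0.95 (SE 0.31). The groups did not overlap, but TBI replicate 3 lay just under the lowest sham rats. Every TBI library was below every sham library in 4.58% of the 240 miRNAs tested, given as background only since this contrast also chose the pair.

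The size of the 1 m difference depended in part on 1 sham rat, replicate 1 at 59.6 CPM. Without it the log2 fold change was -0.75, and over all rats left out in turn it was -1.31 to -0.75. miR-190b-5p at 1 m was 28.4, 40.7, 61.2 and 51.2 CPM after TBI and 46.4, 34.6, 34.8 and 45.0 CPM after sham surgery. These groups overlapped on both sides, with a log2 fold change of 0.22 (SE 0.25).

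The 5 other intervals did not enter the choice, and no contrast of either member passed an adjusted p of 0.05 there in the quasi-likelihood test of edgeR. At 24 h miR-190a-5p was 28.6, 47.0, 29.2 and 42.1 CPM after TBI and 39.1, 31.3, 29.4 and 40.9 CPM after sham surgery. Its log2 fold change was 0.08 (adjusted p = 0.981). miR-190b-5p was 36.7, 42.8, 34.6 and 38.0 CPM after TBI and 36.4, 29.1, 38.8 and 33.8 CPM after sham surgery, with a log2 fold change of 0.15 (adjusted p = 0.981). At 24 h, 4 of 233 miRNAs (1.72%) were called.

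At 2 m both members spread widely. miR-190a-5p was 23.0, 50.96, 9.39 and 28.4 CPM in the TBI libraries, the 23.0 being that of the shallow library, and 55.9, 22.2, 61.6 and 25.3 CPM in the sham libraries. TBI replicate 3 held the lowest level of all 56 libraries and sham replicate 3 the highest, yet the groups overlapped. The log2 fold change was -0.53 (SE 0.49, adjusted p = 0.835), and -0.52 (SE 0.52, adjusted p = 0.779) without the shallow library. It was -1.08 without TBI replicate 2 and -0.14 without TBI replicate 3, the lowest and highest values with 1 rat left out.

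miR-190b-5p at 2 m was 57.4, 63.7, 27.5 and 47.4 CPM after TBI, the 57.4 from the shallow library, and 47.0, 25.7, 55.0 and 27.5 CPM after sham surgery. Its log2 fold change was 0.26 (SE 0.33, adjusted p = 0.894), and 0.22 (SE 0.34, adjusted p = 0.882) without the shallow library. It was 0.03 without TBI replicate 2, 0.50 without TBI replicate 3, and 0.08 with scaling by total count. The ranges of the groups overlapped. Of the 236 miRNAs tested, 0 (0.0%) were called at 2 m, and without the shallow library 0 of 241 (0.0%), with 17 at an unadjusted p under 0.05 in either fit.

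From 3 m to 1 y the levels of TBI and sham rats overlapped for both members. At 3 m miR-190a-5p was 23.6 to 30.9 CPM after TBI and 24.2 to 30.3 CPM after sham surgery (log2 fold change -0.04, adjusted p = 0.942). miR-190b-5p was 32.1 to 44.9 and 26.3 to 38.3 CPM (log2 fold change 0.17, adjusted p = 0.694).

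At 6 m miR-190a-5p was 30.2 to 45.4 CPM after TBI and 29.1 to 53.9 CPM after sham surgery (log2 fold change 0.03, adjusted p = 0.971). miR-190b-5p was 44.7 to 58.2 and 41.7 to 53.0 CPM (log2 fold change 0.13, adjusted p = 0.961). The highest miR-190a-5p level at this interval was in a sham rat, replicate 1.

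At 1 y miR-190a-5p was 32.6, 43.6, 40.5 and 34.8 CPM after TBI and 30.2, 33.3, 27.5 and 35.3 CPM after sham surgery. The log2 fold change was 0.25 (SE 0.13, adjusted p = 0.431), and only 2 TBI rats of 4 exceeded the whole sham range. miR-190b-5p was 42.7 to 51.8 CPM after TBI and 35.7 to 55.9 CPM after sham surgery, a log2 fold change of 0.00 (adjusted p = 0.992). The S numbers that end the sample names occur on 2 libraries each, and at 1 y each is shared by 1 sham and 1 TBI library, where at all other intervals both belong to the same group. What the S numbers mark is not given, so they do not show how run and treatment relate at any interval. A run effect was not tested.

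**Figure D2:**
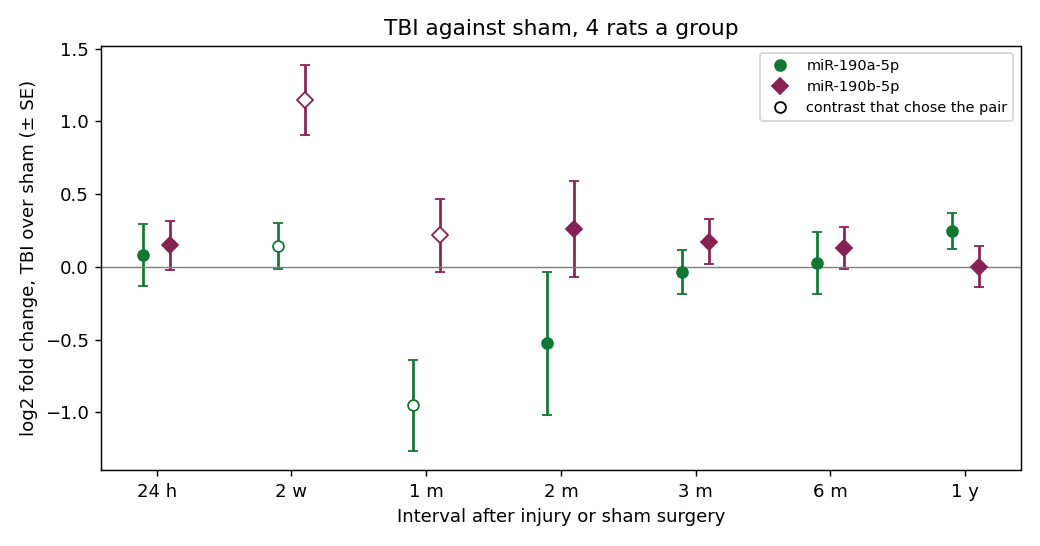
Log2 fold change of TBI over sham with its SE from edgeR at each interval, for miR-190a-5p (circles) and miR-190b-5p (diamonds), 4 rats a group, with open symbols at the 2 intervals that chose the pair. The open diamond at 2 w is at 1.15 and the open circle at 1 m at -0.95, the values that chose the pair. The filled symbols lie between -0.53 and 0.26, and the SE bars of miR-190a-5p at 1 m and 2 m overlap.

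Exact permutation tests of log2 CPM (two-sided) also passed at none of these intervals. Over the 5 intervals their p-values were 0.143 to 0.8 for miR-190a-5p, and 0.714 to 0.8 after adjustment over the 5. For miR-190b-5p the exact permutation p-values were 0.257 to 0.857, and 0.524 to 0.857 adjusted. At 2 m without the shallow library the exact permutation p was 0.543 for miR-190a-5p and 0.6 for miR-190b-5p. With 4 rats against 4 the smallest p this test can give is 0.0286.

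A pooled TBI effect over the 5 intervals, fitted to 40 libraries with the interval as a term, was -0.04 for miR-190a-5p (SE 0.14, adjusted p = 0.976) and 0.13 for miR-190b-5p (SE 0.09, adjusted p = 0.693) on the log2 scale. Without the shallow library it was -0.04 (adjusted p = 0.962) and 0.12 (adjusted p = 0.805). In that fit 5 of 240 miRNAs (2.08%) were called, and 0 were called with 24 h or 6 m left out. In the fits of single intervals, 0 of 227 miRNAs were called at 2 w (0.0%) and 1 of 240 at 1 m (0.417%). For 3 m the number was 0 of 220 (0.0%), for 6 m 0 of 224 (0.0%) and for 1 y 0 of 225 (0.0%).

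Counts of 0 depended on the tool at some intervals. At 2 w it gave 21 unadjusted p-values under 0.05, and at 2 m 17. For 3 m, 6 m and 1 y the numbers were 12, 11 and 22. edgeR's likelihood ratio test called 8, 2, 0, 0 and 0 miRNAs at 2 w, 2 m, 3 m, 6 m and 1 y in turn, and DESeq2's Wald test called 7, 1, 1, 0 and 0. At 2 w the calls of both tools included miR-190b-5p, from which nothing is read because its contrast there chose the pair. At 24 h, 2 m, 3 m, 6 m and 1 y, the intervals that did not enter the choice, neither member was called by these tools.

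Across the sham rats of these 5 intervals, neither member was called for a change with time. The quasi-likelihood F-test on 20 libraries gave an adjusted p of 0.456 for miR-190a-5p and 0.231 for miR-190b-5p. In the same fit 81 of 233 miRNAs (34.8%) were called. Interval, age and the handling of the tissue cannot be told apart in this comparison.

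Ordered by mean, miR-190a-5p ran from 41.3 CPM in sham rats at 2 m down to 19.8 CPM in TBI rats at 1 m. miR-190b-5p ran from 84.4 CPM in TBI rats at 2 w, with TBI rats at 6 m next at 51.01 ± 6.51 CPM (SD, n = 4), down to 34.1 CPM in sham rats at 3 m. Every pair of neighbours in either order had overlapping ranges.

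The pair can also be read within a library, as the share of miR-190b-5p in the summed counts of both. This share does not depend on how libraries are scaled. It was 43.7% to 78.6% over the 56 libraries, and miR-190b-5p had more counts than miR-190a-5p in 46 of them, 25 of 28 after TBI and 21 of 28 after sham surgery.

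At 2 w and at 1 m the share was higher in every TBI rat than in every sham rat. It was 70.05% ± 6.51 after TBI and 55.4% ± 2.80 after sham surgery at 2 w (SD, n = 4 each). At 1 m it was 69.8% ± 7.22 and 51.4% ± 6.24. These differences, 14.6 and 18.4 percentage points, rest on the contrasts that chose the pair and were not tested. Of the ratios between all pairs of tested miRNAs, 6.06% did not overlap between the groups at 2 w and 8.73% at 1 m.

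At 2 m, which did not enter the choice, the share again did not overlap between the groups. It was 71.4%, 55.6%, 74.5% and 62.5% in the TBI libraries and 45.7%, 53.6%, 47.2% and 52.04% in the sham libraries. Each TBI rat exceeded the whole sham range, though TBI replicate 2 by little. The means were 66.0% ± 8.63 and 49.6% ± 3.81 (SD, n = 4 each), a difference of 16.4 percentage points. The exact permutation p was 0.0286, the smallest possible here, and 0.143 after adjustment over the 5 intervals. Beside the p-values of the other intervals no smaller adjusted p was possible at 2 m. The adjusted test could not pass there, and nothing is concluded from it.

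The 71.4% came from the shallow library, 5 of 7 counts, with a 95% Wilson interval of 35.9% to 91.8% that covers counting error only. Without that library the TBI mean was 64.2% ± 9.60 (SD, n = 3) and the difference 14.6 percentage points (exact permutation, adjusted p = 0.143, again the smallest possible). Among the ratios of all pairs of miRNAs tested at 2 m, 4.33% did not overlap between the groups, and 8.73% without the shallow library.

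At the other 4 intervals the shares of TBI and sham rats overlapped. TBI minus sham was 1.72 percentage points at 24 h (exact permutation p = 0.771), 3.84 at 3 m (p = 0.343), 0.75 at 6 m (p = 0.943) and -3.81 at 1 y (p = 0.257). Whether the difference at 2 m differs from those at other intervals was not tested.

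**Figure D3:**
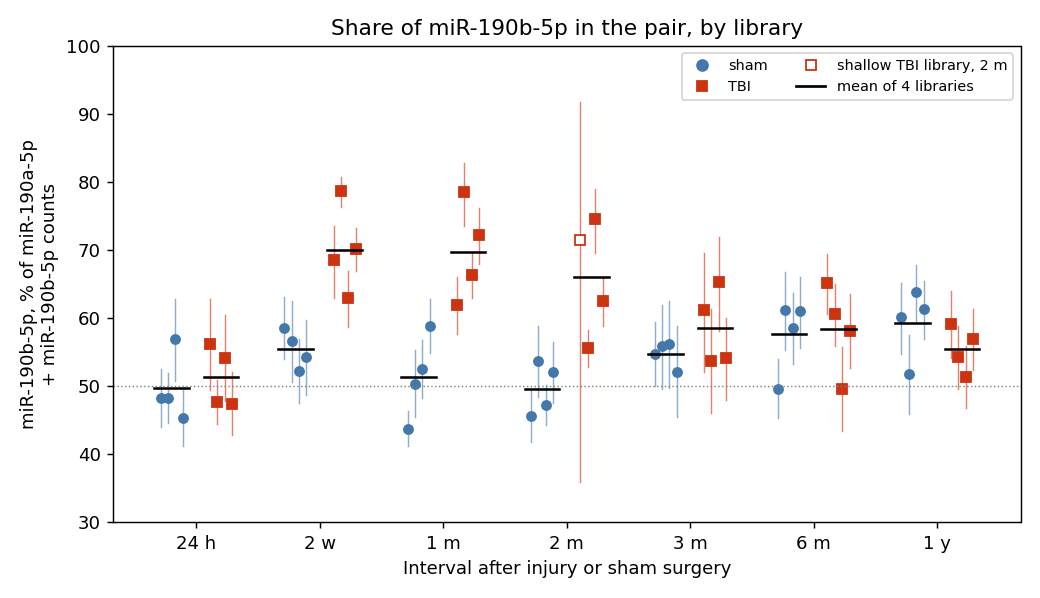
Share of miR-190b-5p in the summed counts of the pair, in percent, in each library by interval, with 95% Wilson intervals as thin lines, a bar at the mean of 4 rats and the vertical axis from 30% to 100%. TBI rats (squares) lie above sham rats (circles) without overlap at 2 w, 1 m and 2 m, where the TBI means are 70.05%, 69.8% and 66.0%.

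Across rats the members tended to rise and fall together. As a description, the correlation of their log2 CPM over 55 libraries without the shallow one was 0.40 (Pearson) and 0.46 (Spearman). With each library taken as its deviation from the mean of its group, it was 0.66 and 0.57. The points share library preparation, scaling and a common 5′ sequence. The share of miR-190b-5p had a correlation of -0.02 with the log2 total count.

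**Figure D4:**
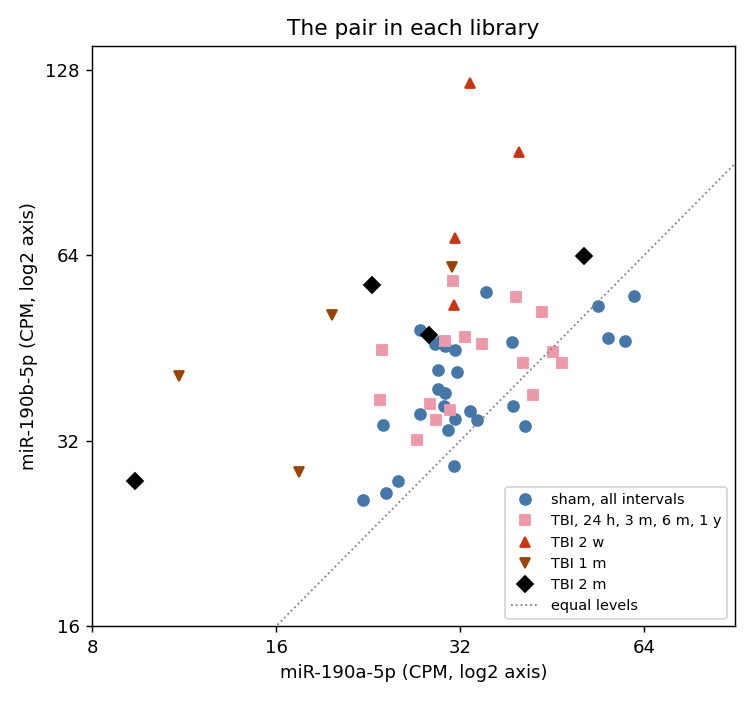
miR-190b-5p against miR-190a-5p in CPM in each library, both axes on a log2 scale, with the dotted line at equal levels and the TBI libraries of 2 w, 1 m and 2 m marked apart. The TBI libraries at 2 w lie upward of most others. Those at 1 m lie leftward of most others, except replicate 3, near the middle at 31.1 CPM of miR-190a-5p. More counts of miR-190b-5p than of miR-190a-5p were found in 46 of the 56 libraries.

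By Spearman correlation of log2 CPM over the 56 libraries and 243 other miRNAs, the patterns most like miR-190a-5p were those of miR-153-5p (0.67), miR-138-5p (0.65) and miR-300-5p (0.60). miR-190b-5p came 28th of these, at 0.41. The places below miR-153-5p depended on the measure. Over deviations from group means miR-153-5p (0.72) was followed by miR-17-5p (0.65) and miR-30b-5p (0.64), and miR-190b-5p came 16th (0.55). By Pearson correlation miR-153-5p (0.80) was followed by miR-335 (0.68) and miR-138-5p (0.67). miR-153 and miR-138 are neuron-enriched, and miR-153 is encoded in an intron of Ptprn2. In the quasi-likelihood test at 1 m, the log2 fold change of miR-153-5p was -0.39 (SE 0.36, adjusted p = 0.625). It was -0.40 for miR-138-5p (SE 0.17, adjusted p = 0.244). For miR-300-5p it was -0.45 (SE 0.25, adjusted p = 0.377). The 1 m libraries entered the correlation that picked these miRNAs, so a like direction at 1 m is not independent of that choice. Of the list of 8 neuron-enriched miRNAs described below, 4 had a positive log2 fold change at 1 m.

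The patterns most like miR-190b-5p were those of miR-340-5p (0.62), miR-106b-5p (0.53) and miR-16-5p (0.51), and miR-190a-5p came 13th. This order depended on the measure. Over deviations from group means the first 3 were miR-20a-5p (0.63), miR-190a-5p (0.55) and miR-219a-5p (0.55), and by Pearson correlation the first was miR-142-5p (0.58). In the quasi-likelihood test at 2 w, the log2 fold change of miR-340-5p was 0.13 (adjusted p = 0.756). It was 0.20 for miR-106b-5p (adjusted p = 0.723) and 0.11 for miR-16-5p (adjusted p = 0.756). The 2 w libraries also entered the correlation, so a like direction at 2 w is not independent of it.

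Other miRNAs that lie in introns of host genes, as miR-190a does, were taken as a list of 17, all of them tested. The quasi-likelihood test called 0 of 17 at each of the 7 intervals. From 24 h to 1 y, 0, 0, 5, 3, 2, 2 and 3 of them had an unadjusted p under 0.05. Over all miRNAs tested, 12, 21, 42, 17, 12, 11 and 22 had one, of 233, 227, 240, 236, 220, 224 and 225. edgeR's likelihood ratio test and DESeq2's Wald test each called 1 at 1 m, where each called 5 of all 240 miRNAs, and 0 elsewhere. The median log2 fold change of the list was -0.14 to 0.03, and that of all miRNAs tested -0.03 to 0.06.

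The summed level of 5 miRNAs typical of leukocytes and microglia was 1865 to 3458 CPM after TBI and 1561 to 1891 CPM after sham surgery at 2 w. At 1 m it was 2609 to 3332 and 1555 to 1741 CPM, and at 2 m 1994 to 2814 and 1512 to 1674 CPM, where the shallow library set neither end of the TBI range. The ranges overlapped at 2 w and not at 1 m or 2 m. From 24 h to 1 y the quasi-likelihood test gave an unadjusted p under 0.05 for 12, 21, 42, 17, 12, 11 and 22 of all miRNAs. Of the 4 of this list tested at each interval, 3, 3, 3, 3, 2, 3 and 0 had one. Of its members the quasi-likelihood test called miR-155-5p at 24 h (log2 fold change 2.72, adjusted p = 1.84e-05) and miR-146a-5p at 1 m (1.41, adjusted p = 0.00131), both known for their induction in inflammation, and 0 at the other 5 intervals. edgeR's likelihood ratio test called 1, 3, 2, 2, 0, 0 and 0 of the 4 from 24 h to 1 y, against 4, 8, 5, 2, 0, 0 and 0 of all miRNAs. DESeq2's Wald test called 1, 3, 2, 1, 1, 0 and 0 of the 4, against 5, 7, 5, 1, 1, 0 and 0 of all. None of its markers was at 0 in every library of a group. The part of these cells in the levels of the pair was not tested.

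The summed level of 8 neuron-enriched miRNAs was 151719 to 233366 CPM after TBI and 220917 to 284028 CPM after sham surgery at 1 m, and the groups overlapped. The quasi-likelihood test called 0 of 8 at every interval, and the other tools called 0. At an unadjusted p under 0.05 there were 3 at 1 m and 2 at 1 y. Over all miRNAs tested, 42 of 240 had such a p at 1 m and 22 of 225 at 1 y. The median log2 fold change of the list at 1 m was -0.08 (4 of 8 positive), against 0.02 over all miRNAs tested. At 2 w the sums were 241673 to 299210 and 255971 to 318844 CPM. The part of neurons in the level of miR-190a-5p was not tested.

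The sums of the other lists overlapped between TBI and sham rats at 2 w, 1 m and 2 m. They were 3 oligodendrocyte, 4 choroid plexus, 2 red blood cell and 3 vessel wall miRNAs. The quasi-likelihood test called 0 of them at these 3 intervals. At 1 m it gave an unadjusted p under 0.05 for 2 oligodendrocyte, 0 choroid plexus, 2 red blood cell and 1 vessel wall miRNAs. Over all miRNAs the number there was 42 of 240. The other tools each called 1 oligodendrocyte and 1 red blood cell miRNA at 1 m, and each called 5 over all miRNAs. At 1 m, for example, the oligodendrocyte sum was 1930 to 2485 CPM after TBI and 1642 to 2857 CPM after sham surgery. The vessel wall sum was 697 to 1413 and 1027 to 1671 CPM. Such sums can hide changes of single members. The median log2 fold change at 1 m was -0.95 for the oligodendrocyte list (1 of 3 positive) and -1.36 for the red blood cell list (0 of 2 positive). It was -0.03 for choroid plexus and -0.11 for vessel wall miRNAs, against 0.02 over all miRNAs tested. The part of these cells in the levels of the pair was not tested.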

How the data were processed

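Small RNA of the hippocampus of 56 rats was measured, 4 per group in 14 groups. The authors prepared NEBNext libraries and ran them on a NextSeq550 (bcl2fastq 2.20.0.422 in the submitters' processing notes). With miRDeep2 and the miRBase sequences they trimmed adapters and counted reads for each miRNA, and the deposited values are these raw counts, not normalized. The genome build, the division of reads that fit several miRNAs and the sequencing run are not given in the sources used here. All 56 columns carry a sample name, and 0 were left out. Counting errors are those of reads without molecular identifiers.

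Groups came from the labels for treatment and interval. Replicate numbers follow the order of deposition and pair nothing. The sample names end in 28 different S numbers on 2 libraries each, 24 within 1 group and 4, all at 1 y, on 1 sham and 1 TBI library, and what they mark is not given. The p-values set differences between groups against the variation between libraries, 1 per rat.

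Each interval was fitted on its 8 libraries by the quasi-likelihood test of edgeR 4.0.16 (R 4.3.3) after filterByExpr and TMM, with Benjamini-Hochberg adjustment over all miRNAs tested and a threshold of 0.05. The SE is the log2 fold change over the square root of F. CPM used TMM over all 56 libraries, with a prior count of 2 for log2 CPM. Shares and log2 CPM were compared by two-sided exact permutation tests over the splits of 8 rats. Python 3.11.15, pandas 2.3.3, scipy 1.17.1 and matplotlib 3.10.9 served for tables and figures, and the fits were tested on simulated data.

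The members, the lists and the alternatives were chosen with earlier results of these data known. Named besides the pair are, for each member, the 3 miRNAs with the highest Spearman correlation, and some of the first 3 under another correlation measure. List members are named where the quasi-likelihood test called them in a fit of 1 interval, and not where only another tool did. The intronic list shares miRNAs with the neuron, oligodendrocyte, choroid plexus and vessel wall lists, so the same call can be counted in more than 1 list. Alternatives were DESeq2 1.42.0 size factors, total count scaling, filtering by a minimum of 10 counts per library or not at all, the Wald test in DESeq2 (there the likelihood ratio test for the sham time course), the likelihood ratio test in edgeR, a joint fit, and leaving out each rat. The Wald test was first run with a local dispersion trend, and the default trend was put in its place after those counts had been seen. Both are reported.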

Additional observations from a re-analysis of the deposited data

Results flagged for a closer look

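In 42 sets of 4 libraries (2 levels and the share in each of 14 groups), 2 held a library far from the other 3, where chance at 1 in 20 gives 2.1. Sham replicate 1 at 1 m had 59.6 CPM of miR-190a-5p (823 counts), against 31.4 to 34.1 CPM in the other 3 sham rats. Without it the 1 m log2 fold change of miR-190a-5p was -0.75 in place of -0.95. Sham replicate 1 at 6 m had 53.9 CPM of miR-190a-5p (254 counts), against 29.1 to 29.7 CPM in the other 3. Without it the 6 m log2 fold change was 0.27 (adjusted p = 0.516) in place of 0.03.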

How the results depend on the processing

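No tested contrast of either member, no pooled effect and no sham time course crossed the threshold under any alternative run. For the share at 2 m this says nothing, since 0.143 is the smallest p its test can give there after adjustment. Of the alternatives other than leaving out a rat, 156 were counted as keeping the direction and 6 did not, each for a value near 0. The 156 include 7 alternatives per member for the sham time course, an F-test that has no direction. miR-190a-5p at 6 m became -0.017 (log2) without a filter. miR-190b-5p at 1 y became -0.0174 with a minimum of 10 counts per library, -3.85e-04 by edgeR's likelihood ratio test, and by DESeq2's Wald test -0.00417, or -0.00451 with a local dispersion trend. The pooled effect of miR-190a-5p became 0.0832 with 2 m left out. With each rat left out, 195 values were counted as keeping their direction and 15 did not. The 195 include 20 per member from the sham time course, which has no direction. Log2 fold changes then ran from -0.0563 to 0.189 for miR-190a-5p at 24 h, from -0.0317 to 0.387 for miR-190b-5p at 1 m, from -0.111 to 0.0306 for miR-190a-5p at 3 m, from -0.0618 to 0.268 for miR-190a-5p at 6 m and from -0.0798 to 0.126 for miR-190b-5p at 1 y. The share at 6 m ran from -1.92 to 3.67 percentage points. The cause was not tested.

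The Wald test of DESeq2 called 5 miRNAs at 1 m with the default dispersion trend and 12 with the local trend, where the quasi-likelihood test called 1, the same test without a filter 2 and the likelihood ratio test of edgeR 5. The 12 include miR-190a-5p, whose contrast there chose the pair, and none of the other 4 fits called it, so the change of trend ended that call. The joint fit of all 56 libraries called it as well, and also called miR-190b-5p at 2 w. Nothing is read from these calls, since both contrasts chose the pair. The local trend gave 6 calls at 24 h where the default gave 5, 8 where it gave 7 at 2 w, and 3 where it gave 1 at 3 m, and both gave 1 at 2 m. At 2 m, scaling by total count moved the median of all miRNAs to -0.18 (log2). The filter of 10 counts in every library dropped both members at 2 m and in the pooled fit, since the shallow library held 2 and 5. As a neighbour of miR-190b-5p, miR-340-5p fell to 0.45 over deviations from group means. The 2 m share of the shallow library rests on 7 counts.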
